A study of Mus musculus with 12 samples.

Results

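The effect of irradiation on whole bone marrow was measured by setting all 6 irradiated arrays against all 6 nonirradiated arrays of a set of 12, with the treatment of the mice, vehicle or PTH (parathyroid hormone), as a term in the model. The members were all 19938 genes that could be read from array rows with exactly 1 gene symbol, using for each gene its brightest row by the mean of all 12 arrays. Within them, 579 genes with modest changes were described in detail. A gene was called modest when its irradiated and nonirradiated arrays differed at a Benjamini-Hochberg adjusted p under 0.05 (limma), its log2 difference was under 1 in size, which is less than 2-fold, and it was called in neither comparison of 3 against 3 arrays made within vehicle or within PTH.

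The mice were of the B6 strain, and RNA came from the flush of their long bones at 16 days of age. Irradiated mice had received 2 fractions of 310 cGy, a sub-lethal dose, at 10 days of age, and nonirradiated mice had not. Both arms held 3 arrays from mice given vehicle and 3 from mice given PTH from day 11 to day 15, that is, for 5 days, beginning the day after irradiation. Whether an array stands for 1 mouse or for a pool is not stated in the labels, and the p-values therefore reflect the spread among these arrays, part of which could be technical.

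Ionising radiation breaks DNA, and the kinase Atm and the transcription factor p53 then switch on genes of cell cycle arrest, repair and apoptosis. Lymphoid progenitors are among the most radiosensitive cells of marrow, while macrophages, stromal cells and adipocytes are more resistant, and adipocytes fill irradiated marrow. The marrow holds many cell types in 1 sample, and in bulk RNA fewer cells of a type and less RNA per cell cannot be told apart.

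Array medians lay between 6.18 and 6.25 on the deposited log2 scale. The interquartile range over all rows was 2.86 in nonirradiated vehicle replicate 3 and 2.88 in irradiated PTH replicate 3, against 3.13 to 3.25 in the other 10 arrays, and the first principal component, 39.6% of the variance, did not separate the arms, whereas the second, 23.5%, did so except for irradiated PTH replicate 3. Expression of Xist and Y-linked genes gave a female pattern in 3 of the 6 nonirradiated arrays, all 3 of them PTH, and in 2 of the 6 irradiated arrays. Markers of erythroid cells and neutrophils were abundant in every array, with list means of 10.68 to 11.41 and 9.57 to 10.70, as in marrow, while the 22 skeletal muscle markers averaged 6.03 to 6.98 and their ranges overlapped between the arms.

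B lineage genes were lower and many adipocyte and interferon response genes higher in irradiated marrow, and most of the called changes were small. Of 19938 genes, 1223 (6.13%) differed between the arms, 494 higher (2.48%) and 729 lower (3.66%) in irradiated marrow (limma, Benjamini-Hochberg adjusted p under 0.05). The largest fall was in Ms4a1, which encodes the B cell antigen CD20, and the second largest in Cpm, which encodes carboxypeptidase M. Ms4a1 lay between 9.52 and 10.41 in nonirradiated arrays (median 9.83) and between 5.31 and 5.72 in irradiated arrays (median 5.67). The arms were far apart, and Ms4a1 fell by 4.31 (SE 0.13, adjusted p = 1.5e-09, limma), while Cpm fell by 3.21 (SE 0.24, adjusted p = 5.91e-06, limma). Serpina3n, an acute phase protease inhibitor, rose most, from a median of 5.62 (range 5.39 to 5.77) to 9.73 (8.51 to 10.07), a 14.9-fold difference (adjusted p = 3.01e-07, limma). Ccl12, a monocyte chemokine, rose 11.9-fold, from a median of 5.23 (range 4.95 to 5.95) to 8.77 (8.58 to 9.53; adjusted p = 8.06e-07, limma).

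Most called genes changed by less than these. Of the 1223, 954 differed by less than 1 on the log2 scale and 608 were called in neither comparison of 3 against 3. Of those 608, 29 differed by 1 or more, and the other 579 (2.9% of the genes tested) were the modest genes, 225 higher (1.13%) and 354 lower (1.78%). The median size of their differences was 0.51, a 1.43-fold change, with a range of 0.28 to 0.99, and 264 of them were below 0.5. Pir, at 0.99, and Ms4a4c, at -0.98, lay just inside the limit, and Stc1, at 1.0, and F13a1, at -1.01, just outside it.

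The comparison within vehicle called 442 genes and that within PTH 485, 672 in either, of which 57 were not called over all 12 arrays. The median standard error over all genes was 0.12 for 6 against 6 arrays and 0.17 for 3 against 3. These comparisons share arrays, so the counts describe the fits and are not separate tests. Over the 12 arrays, 895 genes (4.49%) had arms that did not overlap, and 269 of the 579 modest genes were among them (92 higher and 177 lower). Limma's interaction test of the effect of irradiation under vehicle and under PTH called 0 genes (1094 at an unadjusted p under 0.05). With 3 arrays per group the test can miss differences, so 0 calls does not show equal effects. The female pattern was in 3 nonirradiated PTH arrays and 0 nonirradiated vehicle arrays. Sex is therefore uneven in this test and in the comparisons within a treatment. The test also called 0 genes with the sex pattern as a term. All 579 modest genes had the same direction under vehicle and PTH, which the way they were chosen largely fixes.

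**Figure D1:**
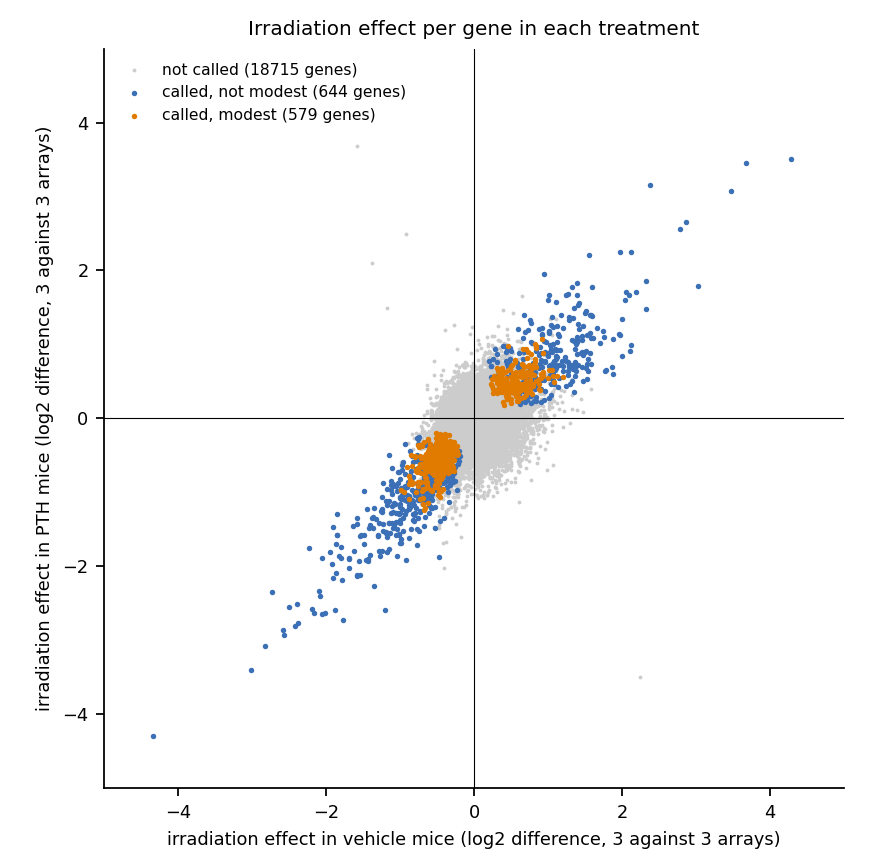
Irradiation effect of each of 19938 genes under vehicle (x axis, log2 difference, 3 against 3 arrays) and under PTH (y axis, same scale); grey points are not called over all 12 arrays, blue points are called but not modest, and orange points are the 579 modest genes. The orange points lie along the diagonal at small values, with the larger blue effects beyond them.

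The modest falls with the smallest p were led by Il10ra, which encodes the ligand-binding chain of the interleukin-10 receptor. Il10ra lay between 7.91 and 8.55 in nonirradiated arrays (median 8.19) and between 7.04 and 7.70 in irradiated arrays (median 7.43), and was 1.80-fold lower (log2 difference -0.85, SE 0.14, adjusted p = 0.00258, limma). In vehicle alone its difference was -0.83 (adjusted p = 0.0697) and in PTH alone -0.87 (adjusted p = 0.0535), so that neither comparison of 3 against 3 called it. Trib2, a pseudokinase that directs C/EBPα to degradation, had a nonirradiated range of 7.23 to 8.0 (median 7.45) and an irradiated range of 6.32 to 6.97 (median 6.70). Trib2 fell by 0.85 (SE 0.14, adjusted p = 0.00261, limma). Gimap6, a GTPase of immunity-associated proteins, fell by 0.86, from a median of 8.85 (range 8.39 to 9.14) to 7.99 (range 7.58 to 8.26; adjusted p = 0.00349, limma).

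Arhgap15, Dock10 and Rps6ka5 encode regulators of small GTPases and a kinase. Arhgap15, which inactivates Rac, had a median of 10.40 (range 10.17 to 10.68) in nonirradiated and 9.54 (9.28 to 10.03) in irradiated arrays, and fell by 0.82 (SE 0.14, adjusted p = 0.00299, limma). Dock10, an activator of Cdc42 found in lymphocytes, fell by 0.64 (SE 0.11, adjusted p = 0.00347), its arms at 10.04 to 10.26 and 9.29 to 9.81. Rps6ka5 encodes the nuclear kinase MSK1, which phosphorylates CREB and histone H3, and fell by 0.51 (SE 0.09, adjusted p = 0.00294, limma). Its 6 nonirradiated arrays lay between 7.32 and 7.70 and its 6 irradiated arrays between 6.89 and 7.09. The remaining falls of the 10 named by the same rule of smallest p and arms without overlap were H2-Q10, a secreted class I molecule (-0.63), Pln, which encodes phospholamban, an inhibitor of the calcium pump SERCA (-0.71), Fchsd2, an F-BAR protein of endocytosis (-0.50), and Pgls, which encodes 6-phosphogluconolactonase of the pentose phosphate pathway (-0.57), with adjusted p between 0.00282 and 0.00335 (limma). These 10 genes kept their call when any 1 of the 12 arrays was left out (leave-one-out fits). Their choice by smallest p and arms without overlap on the same arrays largely fixes this.

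Marker lists of blood cell types were counted beside these falls. Over all genes, 3.66% were called lower and 2.48% higher, and each list count below is to be read beside these shares. Of the 24 measured B lineage markers, 22 were called lower and none higher, with a median log2 difference of -1.85 against -0.01 over all genes, and 1 was modest. The list's array means were 8.57 to 9.08 without irradiation and 6.54 to 7.16 with it. The modest member was Cr2, which encodes complement receptor 2, at 6.24 to 7.06 (median 6.63) without and 5.59 to 6.24 (median 6.07) with irradiation, a fall of 0.64 (adjusted p = 0.0151, limma). Because B lineage markers fell in every irradiated array, the falls of Il10ra, Trib2, Gimap6, Dock10 and Rps6ka5 stood beside that change, whose part in them was not tested.

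Of 22 measured T and NK cell genes, 6 were called lower and 1, Gzmb (granzyme B, 0.96), higher, with a median of -0.23, and 5 of the 7 were called in at least 1 comparison of 3 against 3. Cd3g, an invariant chain of the T cell receptor complex, was modest, at 6.23 to 7.07 (median 6.62) in nonirradiated and 5.67 to 6.28 (median 5.78) in irradiated arrays. A single irradiated array lay above the lowest nonirradiated array, and Cd3g fell by 0.76 (SE 0.16, adjusted p = 0.0124, limma). The other modest member, Lat, the adaptor of T cell receptor signalling, fell by 0.35 with an adjusted p just under 0.05 (limma), and did not pass in 11 of the 12 leave-one-out fits.

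Of 24 measured platelet and megakaryocyte genes, 10 fell and none rose, with a median of -0.59 and 5 modest, and 22 of the 24 had negative differences. The list's array means were 8.33 to 8.90 without irradiation and 7.84 to 8.37 with it. Gp5 encodes glycoprotein V of the platelet von Willebrand factor receptor. It lay between 7.89 and 8.59 in nonirradiated arrays (median 8.24) and between 7.10 and 7.92 in irradiated arrays (median 7.42), and was 1.68-fold lower (log2 difference -0.75, SE 0.14, adjusted p = 0.00489, limma). The arms touched only at their edges. Treml1, a receptor of platelet granules, fell by 0.68 (SE 0.14, adjusted p = 0.0124), its arms at 8.67 to 9.47 and 7.99 to 8.63. Ppbp, a platelet chemokine precursor and the most abundant of these, fell by 0.43, from between 12.99 and 13.11 to between 12.46 and 12.90 (adjusted p = 0.0124, limma). The other called members were Trpc6, a calcium channel (modest, -0.66), Itgb3, the integrin beta-3 chain (modest, -0.84), Mmrn1 (-1.42), Clec1b (-1.04), Rab27b (-0.95), F2rl2 (-0.63) and Gp9 (-0.61). The count of 10 ranged from 8 to 11 when each array was left out in turn.

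Of 24 neutrophil markers, 5 were called lower and none higher, with a median of -0.35. Retnlg, a neutrophil granule protein, had a median of 11.44 (range 11.11 to 11.59) without and 10.67 (9.48 to 11.23) with irradiation, overlapping arms and a log2 difference of -0.98 (adjusted p = 0.0422, limma). Mmp8, neutrophil collagenase, differed by -0.51 (adjusted p = 0.0463, limma). Each of the pair failed to pass in 10 of the 12 leave-one-out fits, and the list's count was 2 in 8 of those fits (leaving out replicate 1 or 2 of nonirradiated vehicle, any replicate of nonirradiated PTH, replicate 1 or 3 of irradiated vehicle, or replicate 1 of irradiated PTH). Of 21 stem and progenitor genes, 6 were lower and none higher, with a median of -0.21. Its modest member, Slamf1 (CD150, a marker of haematopoietic stem cells), fell by 0.88 (adjusted p = 0.0266, limma). F5, coagulation factor V, which platelets also carry, fell by 0.68, from between 8.89 and 9.30 to between 8.01 and 8.83 (SE 0.14, adjusted p = 0.00927, limma). Among 18 erythroid genes, 1 was called higher and 1, Car1 (-1.26), lower, with a median of 0.14. The called rise was the modest member Tal1, a transcription factor of blood formation. Tal1 rose by 0.40, from a median of 8.18 (range 8.0 to 8.24) to 8.52 (8.46 to 8.73, adjusted p = 0.00763, limma).

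Of the 10 named rises, which had the smallest p among modest genes with arms that did not overlap, Sfrp4, Ccn5, Dcbld2 and Nrcam encode secreted or cell surface proteins. Sfrp4 encodes a secreted antagonist of Wnt signalling. It lay between 8.04 and 8.53 in nonirradiated arrays (median 8.35) and between 8.72 and 9.39 in irradiated arrays (median 9.04), and was 1.66-fold higher (log2 difference 0.73, SE 0.13, adjusted p = 0.00299, limma). Arms without overlap were part of the rule that named it. Its difference was 0.74 within vehicle (adjusted p = 0.0643) and 0.72 within PTH (adjusted p = 0.0715). Ccn5, a matricellular protein, rose by 0.44 (SE 0.08, adjusted p = 0.00689), from between 6.99 and 7.34 to between 7.46 and 7.90. Dcbld2, a neuropilin-like membrane protein, rose by 0.60, from between 6.10 and 6.49 to between 6.66 and 7.16 (SE 0.10, adjusted p = 0.00313, limma). Nrcam, an immunoglobulin-type adhesion molecule, rose by 0.55 (SE 0.10, adjusted p = 0.00442, limma).

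The other 6 of these rises were in genes that act inside the cell. Plscr1, an interferon-inducible phospholipid scramblase, rose by 0.68, from a median of 8.50 (range 8.26 to 8.90) to 9.26 (8.99 to 9.54; adjusted p = 0.00673, limma). Its value came from the brighter of 2 array rows. Cttnbp2nl, a component of the STRIPAK phosphatase complexes, had the smallest p of all modest rises, at 0.47 (SE 0.08, adjusted p = 0.00228). Agfg1, an Arf GTPase-activating protein of vesicle traffic (0.65), Gnl2, a nucleolar GTPase of ribosome assembly (0.44), Ubxn2b, a cofactor of the p97 ATPase (0.40), and Anxa7, a calcium-dependent membrane-binding annexin (0.46), had adjusted p between 0.0051 and 0.00711 (limma). All 10 kept their call in each of the 12 leave-one-out fits, which the rule that named them largely fixes.

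**Figure D2:**
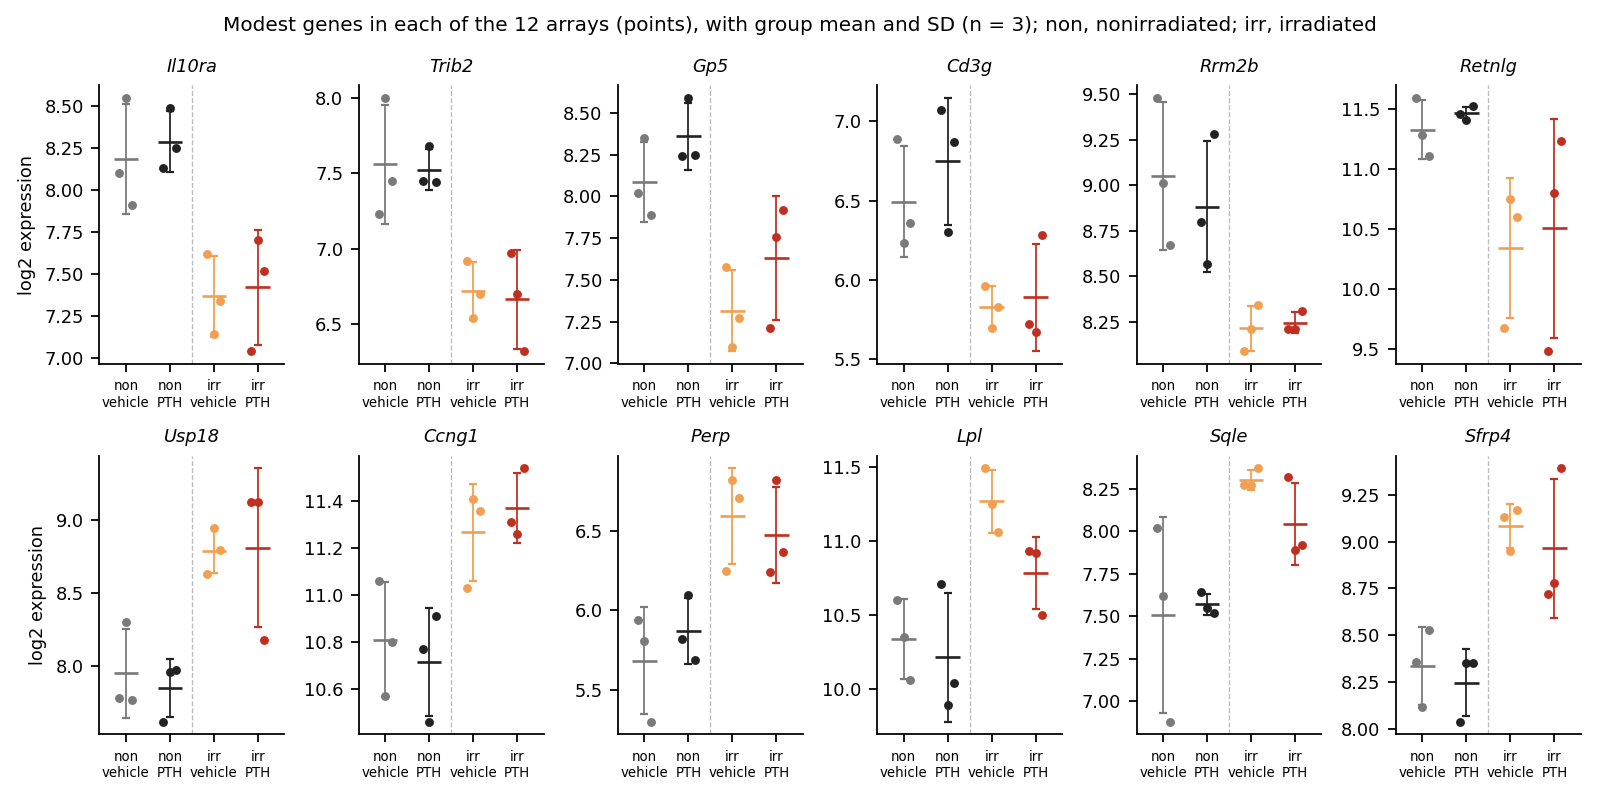
Log2 expression of 12 modest genes in each of the 12 arrays (points), in nonirradiated vehicle and PTH (grey, black) and irradiated vehicle and PTH (orange, red); horizontal bars are group means and error bars are SD, n = 3. Il10ra, Trib2, Rrm2b, Perp and Sfrp4 show 2 arms with no overlap, while Retnlg and Sqle show arms that overlap.

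Interferons switch on a common set of antiviral genes. Of 25 measured members of the interferon response list, 13 were called higher and none lower, with a median difference of 0.71 against -0.01 over all genes, of which 2.48% were called higher. List means by array were 7.67 to 8.10 without irradiation and 8.15 to 8.86 with it, irradiated PTH replicate 3 holding the lowest irradiated mean, 8.15. The count was 12 to 18 when each array was left out and 16 without both arrays of narrow range. Usp18, an interferon-induced protease that removes ISG15 and restrains receptor signalling, was modest. It lay between 7.62 and 8.30 in nonirradiated arrays (median 7.87) and between 8.18 and 9.12 in irradiated arrays (median 8.87), and was 1.86-fold higher (log2 difference 0.90, SE 0.17, adjusted p = 0.00478, limma). A single irradiated array, PTH replicate 3, fell within the nonirradiated range. Xaf1, an interferon-induced partner of XIAP, rose by 0.65, from between 7.89 and 8.37 to between 8.26 and 9.15 (SE 0.14, adjusted p = 0.0139, limma).

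The other 11 called members were not modest. Ifit1, an inhibitor of translation of viral RNA, rose by 1.61, Oas1a by 1.55, Oasl2 by 1.49, Ifit3 by 1.45, Rtp4 by 1.42, Rsad2 by 1.04, Oas3 by 1.01, Ifih1 by 0.90, Oas2 by 0.89, Parp14 by 0.72 and Herc6 by 0.71. Members below the threshold included Irf7 (0.78, adjusted p = 0.0917), Mx1 (-0.13, adjusted p = 0.745) and Ifit2 (0.07, adjusted p = 0.914; limma).

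Of 12 measured interferon-gamma GTPases and chemokines, 6 were called higher and none lower, with a median of 0.39. Gbp5, a guanylate-binding GTPase of cell-autonomous immunity, was modest. It lay between 5.17 and 5.66 without irradiation and between 5.81 and 6.26 with it, and it rose by 0.43 (SE 0.10, adjusted p = 0.0188, limma). Cxcl10, an interferon-induced chemokine for activated T cells, had a nonirradiated range of 6.59 to 7.23 (median 6.74) and an irradiated range of 6.38 to 8.20 (median 7.86). The arms overlapped, because irradiated PTH replicate 3, at 6.38, was the lowest of the 12, and Cxcl10 differed by 0.88 (adjusted p = 0.0375, limma). It did not pass in 11 of the 12 leave-one-out fits, and in the fit without irradiated PTH replicate 3 the adjusted p was 4.81e-05.

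The promoters of the modest members Cxcl10, Gbp5 and Xaf1 are shown because interferon-induced genes are known to carry elements built on GAAANNGAA. Usp18 had no promoter in the set searched, so none is shown for it. RefSeq promoters of mouse assembly GRCm38.p6, from 250 bases before to 50 after the gene start, were searched for GAAANNGAA on both strands, with overlapping matches counted once per promoter. It was found in 10 of 17 measured interferon response members that had a promoter in the table, 58.8%, and in 7 of 8 of the interferon-gamma list, against 9.2% of tested genes and 8.56% of 32851 promoters. It was in 6 of 9 interferon response genes called higher and 4 of 8 not called, and in 5 of 5 and 2 of 3 of the interferon-gamma list, and these differences were not tested. Capitals mark the match in the 250 bases before the start, at chr5:92348890-92349139 (minus strand) for Cxcl10, chr3:142496684-142496933 (plus strand) for Gbp5 and chr11:72301379-72301628 (plus strand) for Xaf1, written 5′ to 3′ along the gene.
Cxcl10: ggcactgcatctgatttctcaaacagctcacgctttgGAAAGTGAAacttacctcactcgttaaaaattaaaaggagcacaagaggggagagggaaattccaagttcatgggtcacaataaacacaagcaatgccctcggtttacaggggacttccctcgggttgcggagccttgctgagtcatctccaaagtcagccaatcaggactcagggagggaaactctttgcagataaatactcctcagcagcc
Gbp5: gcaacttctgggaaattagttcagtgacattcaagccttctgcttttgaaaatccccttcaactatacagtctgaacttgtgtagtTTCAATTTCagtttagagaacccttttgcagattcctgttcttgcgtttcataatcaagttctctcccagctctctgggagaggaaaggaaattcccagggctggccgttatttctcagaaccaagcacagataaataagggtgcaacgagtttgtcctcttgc
Xaf1: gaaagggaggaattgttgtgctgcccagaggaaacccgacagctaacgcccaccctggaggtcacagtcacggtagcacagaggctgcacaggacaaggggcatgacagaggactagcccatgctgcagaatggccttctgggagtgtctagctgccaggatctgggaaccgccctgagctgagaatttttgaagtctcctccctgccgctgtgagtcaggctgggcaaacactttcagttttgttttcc
Cxcl10 has its match 213 bases before the start and Gbp5, on the opposite strand, 164 bases before it. In Xaf1 these letters are not in the window. A match is a description and not a measured binding site.

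Of 32 measured p53 target genes, 8 were called higher and 2 lower, with a median of 0.16 and 23 positive differences, and 6 of the 10 were modest. Bax and Cdkn1a were on the list but were not analysed here. Array means of the list were 7.48 to 7.71 without irradiation and 7.74 to 7.88 with it. Perp, a membrane protein of p53-dependent apoptosis, was at 5.30 to 6.10 (median 5.82) in nonirradiated and 6.24 to 6.82 (median 6.54) in irradiated arrays, and rose 1.69-fold (log2 difference 0.76, SE 0.15, adjusted p = 0.00885, limma). Ccng1, cyclin G1, rose by 0.56, from between 10.46 and 11.06 to between 11.03 and 11.54 (SE 0.12, adjusted p = 0.0125), with arms that touched. Rps27l (0.80) and Aen (0.39), a p53-induced ribosomal protein and a nuclease of apoptosis, were the other modest rises. Eda2r, a death receptor, was above the limit at 1.08, and Polk (0.65), Tnfrsf10b (0.54) and Gadd45a (0.47) were called but also passed within a treatment.

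The 2 falls of the list ran the other way. Rrm2b, a p53-induced ribonucleotide reductase subunit that supplies DNA precursors for repair, lay between 8.57 and 9.48 in nonirradiated arrays (median 8.90) and between 8.09 and 8.34 in irradiated arrays (median 8.21). Every irradiated array was below every nonirradiated array, and Rrm2b fell by 0.74 (SE 0.15, adjusted p = 0.0074, limma). Trp53inp1, a p53-induced regulator of autophagy and apoptosis, fell by 0.52. The count of 8 rises ranged from 4 to 11 when 1 array was left out, and was 4 or 5 in 7 of those fits (leaving out replicate 1 or 3 of nonirradiated vehicle or of nonirradiated PTH, replicate 2 or 3 of irradiated vehicle, or replicate 1 of irradiated PTH). Of 29 DNA repair genes, Lig4, a ligase of end joining (-0.99), and Atm, the kinase that signals DNA breaks, were called lower and none higher. The list's median was -0.04, with 12 positive and 17 negative differences, and 3.66% of all genes were called lower, so the list as a whole showed no clear shift. Atm lay between 7.89 and 8.44 without irradiation and between 7.62 and 7.88 with it (-0.39, adjusted p = 0.0403, limma), and did not pass in 8 of the 12 leave-one-out fits. Of 34 genes of DNA replication and mitosis, none was called.

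Of 28 measured adipocyte markers, 17 were called higher and none lower, with a median of 0.80, and their array means were 7.19 to 7.43 without irradiation and 7.48 to 8.60 with it. Within vehicle 15 of them were called and within PTH 5, and the irradiated means were 8.23 to 8.60 under vehicle and 7.48 to 8.04 under PTH. The difference between the treatments was not tested for the list, and limma's interaction test called none of its genes. The modest ones numbered 3. Lpl, lipoprotein lipase, lay between 9.89 and 10.71 in nonirradiated arrays (median 10.21) and between 10.50 and 11.49 in irradiated arrays (median 10.99), and rose by 0.75 (SE 0.16, adjusted p = 0.0125, limma). Retn, resistin, rose by 0.45 (adjusted p = 0.0131) and Pparg, the regulator of fat cell formation, by 0.40 (adjusted p = 0.0343), the latter with arms of 8.32 to 8.78 and 8.85 to 9.07. Pparg did not pass in 8 of the 12 leave-one-out fits. The other 14 called adipocyte genes lay between 0.79 (Adig, a factor of fat cell differentiation) and 2.10 (Cidec, a lipid droplet protein).

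Of 20 measured genes of cholesterol synthesis, 3 were called higher, all modest, and none lower, while 17 had positive differences and the median was 0.25. Neither comparison of 3 against 3 called any of them. Hsd17b7, an enzyme of the late pathway, had a median of 7.22 (range 6.56 to 7.75) without and 8.0 (7.56 to 8.67) with irradiation, Idi1, which makes the isoprenoid building block dimethylallyl diphosphate, 7.27 (6.97 to 8.20) and 8.33 (7.76 to 8.39), and Sqle, squalene epoxidase, 7.59 (6.88 to 8.02) and 8.27 (7.89 to 8.37). Their arms overlapped. The log2 differences were 0.83, 0.82 and 0.63, with adjusted p of 0.0275, 0.0253 and 0.0364 (limma). Leaving out a single array moved the list's count between 0 and 5. The count was 0 when the array left out was replicate 2 of nonirradiated vehicle, replicate 1 of nonirradiated PTH, replicate 2 or 3 of irradiated vehicle, or replicate 1 of irradiated PTH. It was 1 when replicate 2 or 3 of nonirradiated PTH was left out, and 5 when replicate 1 of nonirradiated vehicle or replicate 3 of irradiated PTH was left out. Adipocyte markers moved the same way in these arrays, and their part in the rise was not tested.

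Of 25 antioxidant and NRF2 genes, 6 were called higher and none lower, with a median of 0.20, the modest ones being Prdx1, peroxiredoxin 1 (0.58), and Gstm5, a glutathione transferase (0.55), beside Srxn1 (0.96), Hmox1 (0.75), Txnrd1 (0.60) and Sod2 (0.56). Prdx1 had arms of 9.03 to 9.69 and 9.58 to 10.26, and Gstm5 of 8.70 to 9.62 and 9.48 to 9.99. The value of Prdx1 came from the brighter of 2 array rows, and with the mean of all rows of a gene it was not called. Of the 12 leave-one-out fits, Prdx1 did not pass in 6 and Gstm5 in 9. The genes of oxidative phosphorylation (25 measured, median 0.29) and ribosome biogenesis (23 measured, median 0.20) held no call. Herpud1, a membrane protein of the unfolded protein response, fell by 0.66 (adjusted p = 0.0166), and Kdm3a, a hypoxia-induced histone demethylase, by 0.45 (adjusted p = 0.0152, limma), as the modest members of their lists. Both ran against most of their lists. Of 22 unfolded protein response genes, 18 had positive differences, with a median of 0.17, and Herpud1 was the only call. Of 23 glycolysis and hypoxia genes, 15 were positive, with a median of 0.21, and 1 was called higher and 1, Kdm3a, lower.

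Of 27 measured monocyte and macrophage genes, 6 were called higher and 1 lower, with a median of 0.15. Mrc1, the mannose receptor CD206, lay between 10.05 and 10.45 in nonirradiated arrays (median 10.33) and between 10.56 and 10.95 in irradiated arrays (median 10.69). The arms were apart, and Mrc1 rose by 0.43 (SE 0.09, adjusted p = 0.0153, limma). Msr1, scavenger receptor A, rose by 0.62 (adjusted p = 0.0206) and C1qc, a chain of complement C1q, by 0.49 (adjusted p = 0.0371, limma). Cx3cr1, the fractalkine receptor of monocytes, was the called fall, at -0.37 (adjusted p = 0.0446), and did not pass in 10 of the 12 leave-one-out fits.

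Of 28 cytokine and chemokine genes, 9 were called higher and 3 lower, among them Il1b at -2.54. With dim genes left out, 14 of the 28 remained, 2 of them called higher and 3 lower. Of 19 acute phase and complement genes, 6 were called higher and none lower. Ccl8, a monocyte chemokine, was modest and rose by 0.90, from between 3.90 and 4.38 to between 4.54 and 5.76 (adjusted p = 0.0227, limma), and Ccl2, MCP-1, by 0.49 (adjusted p = 0.0393, limma). Both were among the dim genes, those with a mean level under the median of all genes. Of the other named genes, Nrcam, H2-Q10, Cr2, Cd3g, Retn, Matn3, Gbp5 and Perp were dim as well. Ccl8 did not pass in 3 and Ccl2 in 9 of the 12 leave-one-out fits. Cxcl13, a B cell chemokine, rose by 0.67 (adjusted p = 0.04, limma). Il15, a growth factor of NK and memory T cells, fell by 0.64, with a median of 7.26 (range 6.81 to 7.58) without and 6.55 (6.37 to 7.04) with irradiation (adjusted p = 0.0165, limma). Cp, ceruloplasmin, rose by 0.51 (SE 0.12, adjusted p = 0.0168, limma).

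Lists of bone, vessel and stromal cells held single modest genes. Emcn, endomucin of marrow sinusoids, had arms of 8.19 to 9.12 and 9.03 to 9.88 and rose by 0.81 (SE 0.18, adjusted p = 0.0167, limma), with 4 of 24 endothelial genes called higher, or 9 without irradiated PTH replicate 3. Called higher were 2 of 24 stromal and niche genes, 2 of 19 cartilage genes and 3 of 20 osteoblast and osteocyte genes, against 2.48% of all genes. None of these lists held a call lower. Apoe, apolipoprotein E, of the stromal list rose by 0.67 and was not called in 5 of the 12 leave-one-out fits. Plau, urokinase, is from the coagulation and fibrinolysis list, whose other modest gene was F5. It rose by 0.57 and was not called in 8 of those fits. Matn3, a cartilage matrix protein, rose by 0.47 and was not called in 7 of them. Tnfsf11, the osteoclast factor RANKL, rose by 0.37 (adjusted p = 0.0491, limma), with arms of 7.41 to 7.72 and 7.55 to 8.10 and no call in 10 of the 12 leave-one-out fits. Itgb3, which osteoclasts and platelets share, fell by 0.84 and was not called in 9 of those fits.

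**Figure D3:**
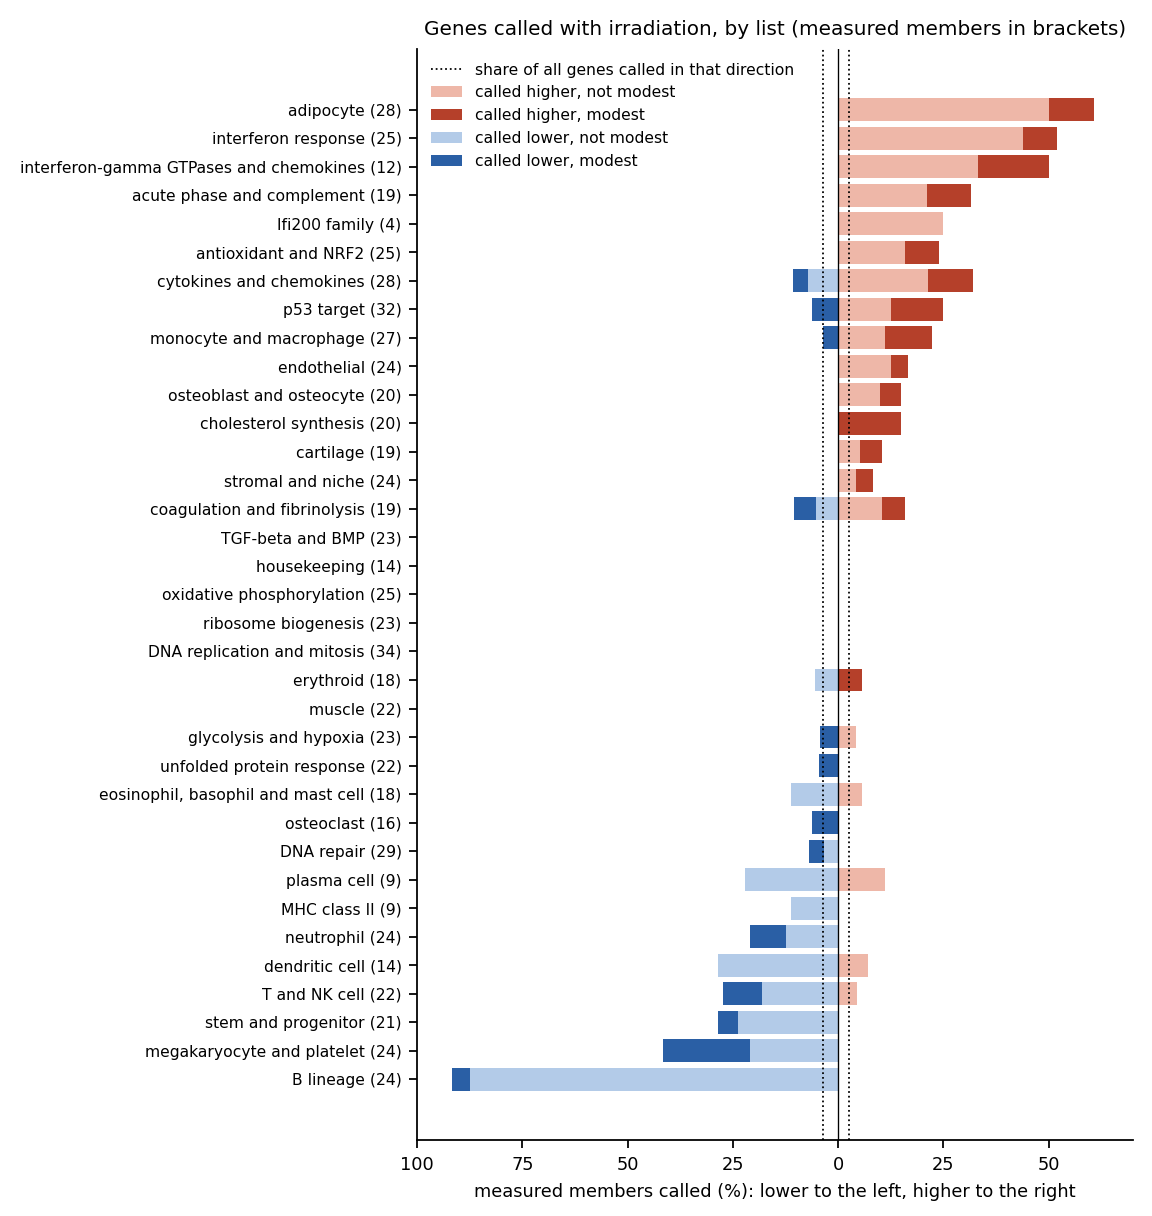
Share of each list's measured members called lower (blue, left) or higher (red, right) with irradiation, with modest members in the darker colour and the measured number in brackets; dotted lines mark the share of all genes tested, 3.66% lower and 2.48% higher. B lineage (22 of 24) lies farthest to the left and adipocyte (17 of 28) farthest to the right, and muscle, housekeeping, replication and ribosome biogenesis have no bar.

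**Figure D4:**
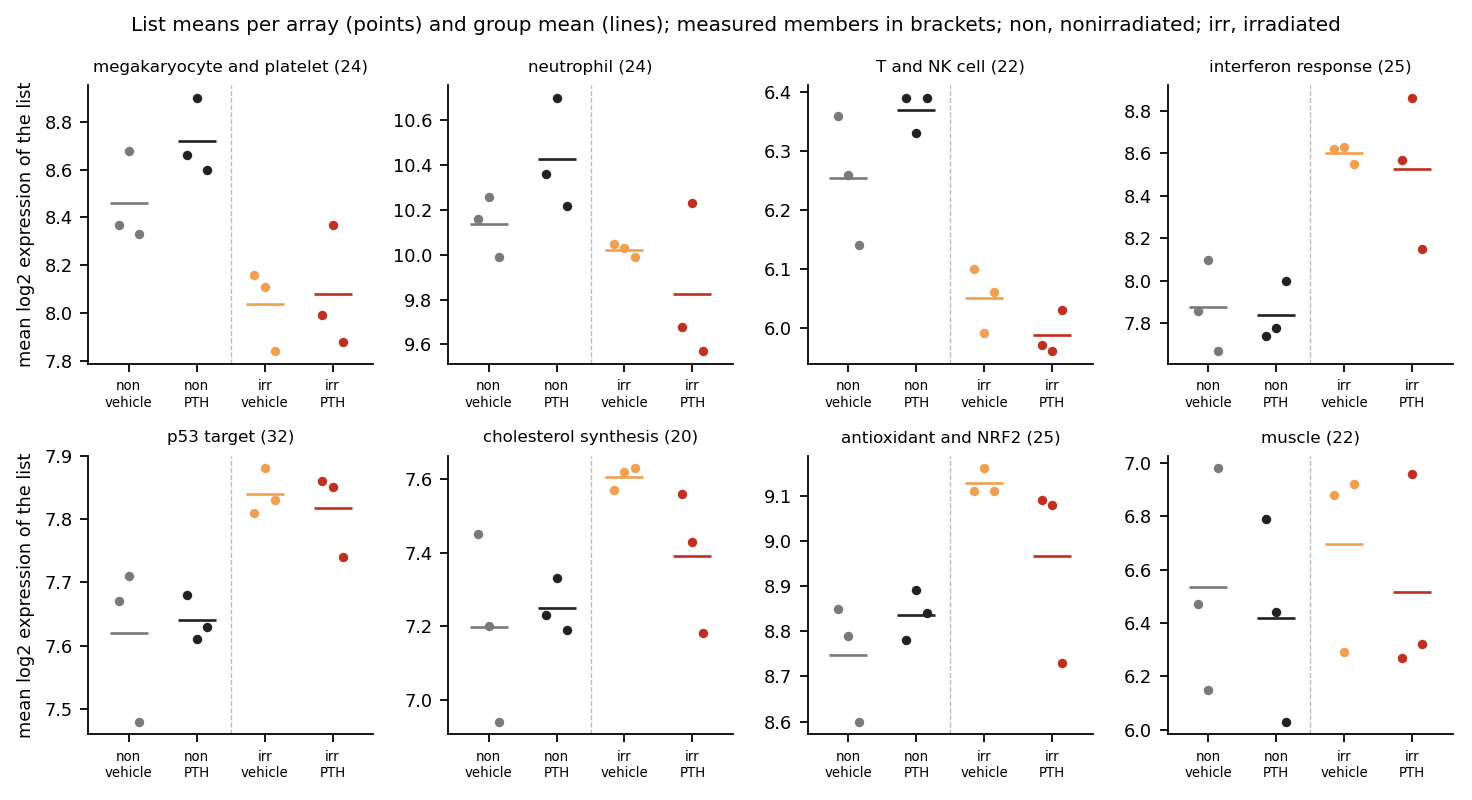
Mean log2 expression of 8 lists in each of the 12 arrays (points), with group means as lines. Megakaryocyte and platelet means are 7.84 to 8.37 in irradiated arrays and 8.33 to 8.90 in nonirradiated arrays, p53 target means do not overlap, and muscle means overlap throughout.

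Over the 36 lists, 717 different genes were measured, of which 162 were called and 48 were modest. The 14 housekeeping genes had no call, with a median of -0.02. Lists of muscle, TGF-beta and BMP, and replication and mitosis genes likewise held none.

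The calls of modest genes were checked by leaving out arrays. Leaving out 1 array at a time, 47.5% to 87.0% of the 579 were still called, and 204 of them (65 higher) were called in all 12 fits. Directions were the same in each of those fits, which a choice by p on the same arrays largely fixes. Of the 66 named genes, 45 kept their call in all 12 fits and 21 lost it in at least 1. The 45 include the 20 rises and falls named by smallest p and arms without overlap, a rule that largely fixes their result. Leaving out replicates 1, 2 and 3 in turn, 9, 16 and 14 named genes were lost for nonirradiated vehicle and 18, 16 and 17 for nonirradiated PTH. For irradiated vehicle 8, 14 and 20 were lost, and for irradiated PTH 15, 10 and 5. The lost genes kept their direction, with highest adjusted p (limma) of 0.0561 for Msr1, 0.0623 for Ccl8, 0.0685 for Idi1, 0.0708 for Hsd17b7, 0.073 for Plau, 0.0745 for Slamf1, 0.0766 for Apoe, 0.0819 for Matn3, 0.0825 for Prdx1, 0.0835 for Pparg, 0.0903 for Retnlg, 0.0931 for Sqle, 0.0936 for Cxcl10, 0.0987 for C1qc and 0.0993 for Ccl2. For Atm, Gstm5, Itgb3, Lat, Mmp8 and Tnfsf11 it lay between 0.106 and 0.129. With the sex pattern as a term, 85.1% of the 579 were still called, and Atm, Gstm5, Itgb3 and Lat were not. Without both arrays of narrow range, 432 were still called. With array weights, 2449 genes were called in all, including 574 of the 579. Of the 579, 143 met every part of the rule for modest genes in that fit. In that fit 8 cholesterol synthesis and 10 antioxidant and NRF2 genes were called higher. With dim genes left out, 22 p53 targets could be measured, of which 4 were called higher. In that fit 7 T and NK cell genes remained, 3 of them called lower, and 8 cartilage genes, none of them called.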

How the data were processed

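Total RNA from whole bone marrow flush was amplified and hybridised to 12 arrays of 1 colour, per the labels' protocols. The deposited values are on a log2 scale, which the authors made with the tools affy, RMA and limma, per the submitters' processing notes; their versions and roles and the genome build are not given in the sources used here, nor whether all arrays were normalized together. The table held 35556 rows, of which 21789 had 1 gene symbol, 1621 several and 12146 none, and gave 19938 genes. Symbols were checked against the RefSeq table of GRCm38.p6, and 91 rows had no match.

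Groups came from the sample titles. Irradiated and nonirradiated arrays were compared with limma 3.58.1 (R 4.3.3), treatment as a term and 9 residual degrees of freedom, with empirical Bayes moderation and Benjamini-Hochberg adjustment over all genes. Effects within a treatment and the interaction came from a model of 4 group means (8 residual degrees of freedom) on all 12 arrays. The number of arrays limits the precision. Named genes were the 10 rises and 10 falls with the smallest p among modest genes with arms that did not overlap, up to 3 modest members of each list, and the 2 largest rises and falls, with predicted genes, receptors of smell and taste, small RNAs, antigen receptor segments and sex markers passed over. Further list members were named because they were called, or, for Irf7, Mx1 and Ifit2, after their values were seen. The members and lists were chosen with earlier results of these data known. Of 787 list genes, 70 were not analysed here. The fits were tested on simulated data. Alternatives tried were the model, moderation, array weights, normalization and centring, a filter on dim genes, the rule for several rows, a replicate block, sex, a fold limit, and arrays left out.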

Additional observations from a re-analysis of the deposited data

Results flagged for a closer look

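Values of the 66 named genes were compared within each arm of 6 arrays, 132 groups in all, and 6 held an array far from the others by Dixon's criterion, where chance flags about 1 in 20 groups.

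Irradiated vehicle replicate 2 was the lowest irradiated array for Cttnbp2nl, at 7.16 against 7.38 for the nearest, and for Pgls, at 7.24 against 7.47. The same array was the highest for Anxa7, at 8.60 against 8.46. Irradiated vehicle replicate 1 was the highest for Apoe, at 10.89 against 10.35. For Cxcl10, nonirradiated vehicle replicate 2 was the highest of its arm, at 7.23 against 6.76, and irradiated PTH replicate 3 the lowest of the other arm, at 6.38 against 7.75.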

How the results depend on the processing

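Leaving out each array in turn gave 876 to 1516 called genes, 336 to 764 higher and 509 to 769 lower, and 392 to 731 modest genes, 142 to 326 higher and 215 to 420 lower; the interaction had 0 calls in every such fit. Modest falls numbered 215 when nonirradiated vehicle replicate 2 was left out and 220 when irradiated vehicle replicate 3 was, modest rises 142 when irradiated PTH replicate 1 was, and called rises 764 when irradiated PTH replicate 3 was. With array weights, 2449 genes were called (1091 higher, 1358 lower) and 976 were modest (438 higher, 538 lower). Requiring a fold of at least 1.5 left 745 called (303 higher, 442 lower) and 187 modest (70 higher, 117 lower). Modest rises numbered 368 with sex as a term and 338 without both arrays of narrow range. The cause was not tested, beyond the fewer arrays or the stricter rule that the setting itself brings. All other alternatives left these counts within 1.5 times the values reported, and no named gene changed direction.

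Over 6 pairs of arrays with the same replicate number, the correlation of deviations from the group means was -0.65 to 0.45. Over 12 pairs with other numbers it was -0.55 to 0.63. Deviations from the mean of so small a group depend on each other, so these correlations cannot decide whether replicate numbers pair the arrays. With a replicate block, 1334 genes were called and 555 were modest, and Gstm5, Lat and Tnfsf11 lost their call. Without both arrays of narrow range 13 of the 66 named genes lost their call, and with arrays centred on housekeeping genes 8 did. Centring moved the median over all genes by less than 0.02 on the log2 scale.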

Other observations

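Some gene families that were not lists of their own were chosen after their values were seen, and their values describe these arrays. A few members, among them Slamf1, Car1 and Car3, were also counted in the lists above. Over all genes, 3.66% were called lower. Of 8 measured Gimap genes, which encode GTPases of lymphocyte survival, 7 were called lower, from Gimap5 at -0.46 to Gimap1 at -1.29, and the eighth, Gimap4, differed by -0.33 (adjusted p = 0.449, limma). Of 5 numbered Slamf receptors, which are adhesion and signalling receptors of blood cells, 4 were called lower: Slamf6 by 1.67, Slamf7 by 1.46, Slamf1 by 0.88 and Slamf9 by 0.50. B lineage markers fell in the same arrays, and their part in these falls was not tested.

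The next 3 families were likewise chosen after their values were seen. Over all 19938 genes, 47.8% of differences were positive and 2.48% of genes were called higher. The oxidative phosphorylation list had 22 positive and 3 negative differences (median 0.29). The ribosome biogenesis list had 20 positive and 3 negative (median 0.20), so a lean upward was not particular to these families. All 20 measured Psmc and Psmd genes, most of which encode subunits of the proteasome's regulatory particle, were positive, with a median of 0.42. Of these, 4 were called: Psmc5 (0.62), Psmd4 (0.49), Psmd2 (0.38) and Psmd11 (0.30). All 8 subunits of the TRiC chaperonin were positive, with a median of 0.23, and Cct3 (0.44) and Cct7 (0.43) were called. Of 18 cytosolic aminoacyl-tRNA synthetases, all positive with a median of 0.24, Hars (0.64), Tars (0.61), Yars (0.48) and Kars (0.38) were called. Members of these families sit on the same arrays and are not independent of each other.

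Carbonic anhydrases, enzymes that hydrate carbon dioxide, went in both directions. Of 16 measured, Car5b (1.67), Car4 (1.47), Car13 (1.15) and Car3 (1.09) were called higher, and Car1, the erythrocyte enzyme, was called lower at -1.26.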
